A study of Mus musculus with 6 samples.

Results

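Genes for organic anion and cation transporters, 9 of the 21367 genes in the deposited table, were followed in kidneys after ischemia-reperfusion injury (IRI). They were taken from the table by their symbols, which are *Slc22a6*, *Slc22a8*, *Slc22a7*, *Slc22a12*, *Slc22a30*, *Slc22a2*, *Slco1a1*, *Slco4c1* and *Abcc4*. The names had been chosen by function with FPKM values, fold changes and adjusted p-values of this same comparison known, so those values are given here as a description and support nothing about the set. Libraries came from the left kidneys of 3 *Ptpn6*+/mev mice and 3 wild-type littermates, 7 weeks old, 1 library per mouse. *Ptpn6*+/mev mice carry, in every cell and on a C57BL/6 background, 1 copy of *Ptpn6* with a base change at a splice site; the gene encodes the phosphatase SHP-1. In both groups the right kidney was removed and the left pedicle was clamped for 34 min, and the kidney was taken 24 h later. Kidneys without injury were not analysed here, so no value below is a change caused by IRI. Whole kidney was sequenced, and fewer proximal tubule cells and less RNA per cell cannot be told apart in these values.

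The proximal tubule clears drugs, toxins, urate and metabolites by pairing uptake carriers on the blood side of the cell with export carriers on the urine side. The SLC22 carriers OAT1 (*Slc22a6*) and OAT3 (*Slc22a8*) take up organic anions in exchange for dicarboxylates such as alpha-ketoglutarate, and OCT2 (*Slc22a2*) takes up organic cations down the membrane potential. Export runs through ATP-driven pumps such as MRP4 (*Abcc4*), and URAT1 (*Slc22a12*) takes urate back from the filtrate.

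A pair of the genes lies side by side on chromosome 19. *Slc22a8* spans chr19:8591254-8611835 and *Slc22a6* spans chr19:8618039-8628299, both on the plus strand of GRCm38 in the GENCODE M21 annotation, with 6203 bp between them. The RefSeq promoter table for GRCm38.p6 held an entry for 8 of the 9 genes, each covering 250 bases before and 50 bases after a start. The nuclear receptor motif AGGTCA was searched on both strands. It was found in 1 of the 8 genes, *Slco1a1*, and in 18.1% of all 27025 genes of that table. Sequence before the start is shown for *Slc22a6*, *Slc22a8* and *Slc22a12*, which were lower together, and for *Slco1a1*, which was not. Capitals mark the motif on either strand. The *Slc22a6* sequence is the 250 bases before the RefSeq start (chr19:8617746-8617995, plus strand), that of *Slc22a12* the 250 bases at chr19:6543071-6543320 (minus strand) and that of *Slco1a1* the 250 bases at chr6:141946963-141947212 (minus strand), each outside the exons of its gene in GENCODE. For *Slc22a8* the 30 bases before the start are given (chr19:8593152-8593181, plus strand), as they lie within an exon of the GENCODE gene, which starts further upstream than the RefSeq entry.
Slc22a6: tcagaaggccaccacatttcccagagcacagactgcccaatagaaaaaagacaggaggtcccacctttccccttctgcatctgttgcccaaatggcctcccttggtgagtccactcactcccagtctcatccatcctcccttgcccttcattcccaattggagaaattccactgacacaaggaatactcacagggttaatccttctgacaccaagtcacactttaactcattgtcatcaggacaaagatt
Slc22a8: tatataaggcaccccaggggagacacaaac
Slc22a12: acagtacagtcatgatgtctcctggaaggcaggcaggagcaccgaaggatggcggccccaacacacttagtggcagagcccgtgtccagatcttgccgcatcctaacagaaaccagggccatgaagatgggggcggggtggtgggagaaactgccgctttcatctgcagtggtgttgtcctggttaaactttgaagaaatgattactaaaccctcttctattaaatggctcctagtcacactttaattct
Slco1a1: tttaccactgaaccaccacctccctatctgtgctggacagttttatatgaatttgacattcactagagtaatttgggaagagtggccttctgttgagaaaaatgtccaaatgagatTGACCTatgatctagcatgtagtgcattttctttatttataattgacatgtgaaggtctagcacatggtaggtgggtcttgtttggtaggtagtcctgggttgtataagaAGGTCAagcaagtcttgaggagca
In *Slco1a1* the motif began 24 bases before the start on the strand of the gene. The match on the opposite strand lay 134 bases before the start and reads TGACCT in the sequence as printed. The entries of *Slc22a6*, *Slc22a8* and *Slc22a12* held no match, which says only that these letters are not in the window. The direct repeat of the motif with a spacer of 1 base was in none of the 8 genes and in 0.0481% of all genes, and the palindrome bound by androgen and glucocorticoid receptors was in none of the 8 and in 0.0111%. The NRF2 motif TGACNNNGC was in *Slco4c1* and *Abcc4*, and in 14% of all genes.

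Total counts were between 10271590 and 12361745 per library, and 13036 genes passed the filter on low counts, 8 of the 9 transporters among them. Wherever 3 values follow each other below, they belong to replicates 1, 2 and 3 of a group in that order. *Ptpn6* stood at 11.85, 14.7 and 13.6 FPKM in the *Ptpn6*+/mev mice, and at 17.5, 10.9 and 15.4 FPKM in the wild-type mice. A splice site change need not alter this total, so it does not check the genotype. The kidney marker *Umod* was present in every library, and the 4 Y-linked genes measured summed to 10.2 to 19.4 FPKM. Wild-type replicate 2 stood apart from the other 5 libraries: its 7 endothelial markers summed to 84.5 FPKM against 172 to 193, its 6 fibroblast markers to 52.6 against 148 to 254, and *Kap*, an androgen-driven proximal tubule transcript, was at 10201 FPKM against 1520 to 2882. Several fold changes are therefore also given without that library.

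By level, the 9 genes ranged from a mean of 360.5 FPKM over the 6 libraries for *Slc22a12* to 0.047 FPKM for *Slco4c1*. FPKM is scaled to transcript length, so levels of different genes can be compared only as far as the annotated lengths hold. In every one of the 6 libraries *Slc22a12* held place 1, *Slc22a6* place 2, *Slc22a2* place 3, *Slc22a30* place 6 and *Slco4c1* place 9. *Slc22a8* and *Abcc4* held places 4 and 5. In the wild-type group *Slc22a8* was above *Abcc4* in each mouse, and in the *Ptpn6*+/mev group it was below *Abcc4* in each mouse. Across the wild-type mice the ranges of these neighbours, 21.3 to 24.9 FPKM for *Slc22a8* and 16.0 to 22.9 FPKM for *Abcc4*, overlapped. *Slco1a1* and *Slc22a7* exchanged places 7 and 8 between mice and did not differ beyond their spread in either group.

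**Figure D1:**
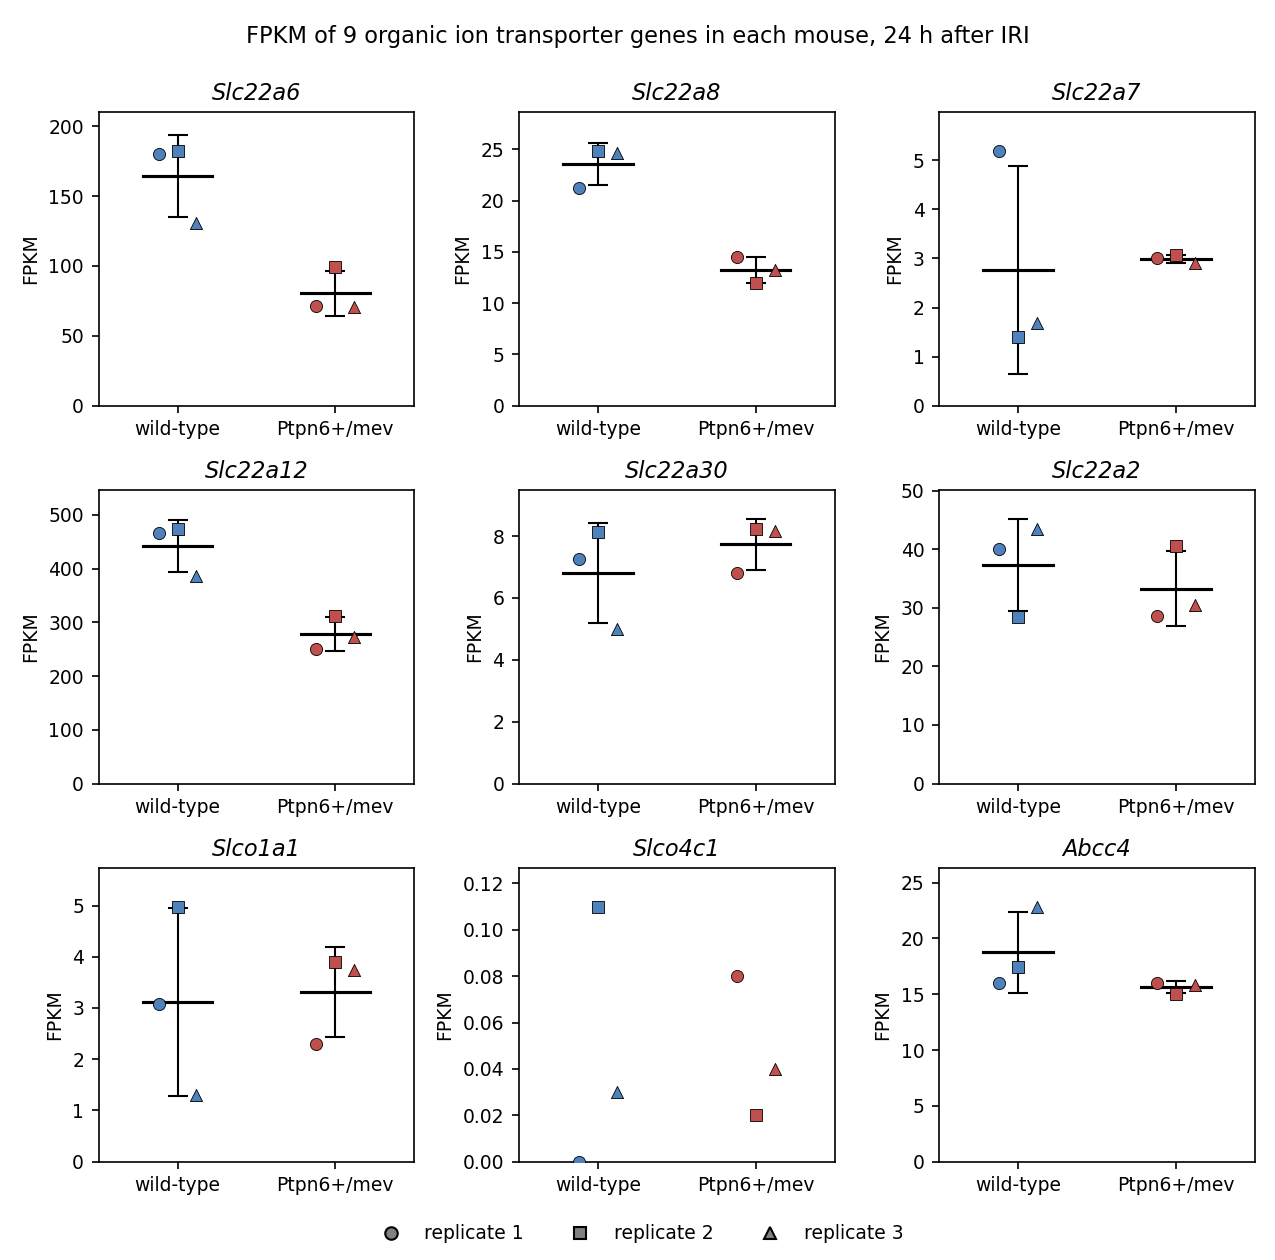
FPKM of each transporter gene (vertical axes, from 0) in 3 wild-type and 3 *Ptpn6*+/mev mice; symbols are mice, the bar is the group mean and the whiskers are 1 SD, left out for *Slco4c1*, which had 0 to 6 counts per library. For *Slc22a6*, *Slc22a8* and *Slc22a12* each *Ptpn6*+/mev mouse lies below each wild-type mouse.

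*Slc22a6*, *Slc22a8* and *Slc22a12* had lower FPKM in all 3 *Ptpn6*+/mev mice than in any wild-type mouse, at 48.8%, 56.0% and 62.9% of the wild-type mean. The other 6 genes overlapped between the groups. Separation in this direction was seen in 6.38% of the 13036 tested genes. The main test, the quasi-likelihood F-test of edgeR with a threshold of 0.05 on the false discovery rate (FDR), called 1 of the 8 tested transporters, *Slc22a8*, and 0.138% of all tested genes in either direction. At an unadjusted p under 0.05 it passed 4 of the 8, all lower in *Ptpn6*+/mev mice, and 6.71% of all tested genes in that direction. The median log2 fold change of *Ptpn6*+/mev over wild-type mice was -0.28 for these 8 and -0.0024 for all tested genes. As the genes were chosen with this comparison known, nothing follows from these shares for the set.

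Among the anion carriers of the blood side, *Slc22a8* was the one called. The *Ptpn6*+/mev mice had 14.5, 11.9 and 13.2 FPKM, and the wild-type mice had 21.3, 24.9 and 24.7 FPKM. The highest *Ptpn6*+/mev mouse was well below the lowest wild-type mouse, and the means were 13.2 ± 1.30 (SD, n = 3) and 23.6 ± 2.04 (SD, n = 3). The counts behind them were 431 to 520 and 800 to 1065 per library. In edgeR's quasi-likelihood test this gave a log2 fold change of -0.91 ± 0.12 (standard error) and an adjusted p of 0.0443. When 1 library was left out in turn, the fold change stayed between -1.0 and -0.84. In the same edgeR test the adjusted p was 0.0116 with wild-type replicate 2 removed and 0.0543 to 0.343 with one of the other 5 removed, so the call was lost without any one of those 5 mice. It was also lost in limma on log2 FPKM, where the adjusted p was 0.0555 with a pseudocount of 1 and 0.0568 with 0.1.

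The neighbouring gene *Slc22a6* was at 71.4, 99.0 and 70.35 FPKM in *Ptpn6*+/mev mice, against 180.0, 183 and 130.4 FPKM in wild-type mice. The groups were apart, with *Ptpn6*+/mev replicate 2 the nearest to the wild-type mice and wild-type replicate 3 the nearest to the *Ptpn6*+/mev mice. The means were 80.2 ± 16.2 (SD, n = 3) and 164 ± 29.4 (SD, n = 3), and the log2 fold change was -1.11 with a standard error of 0.19. Its adjusted p of 0.0774 in edgeR's quasi-likelihood test missed the threshold. With wild-type replicate 2 or 3 left out it was 0.0274 or 0.0319 in that edgeR test, and leaving out one of the other 4 gave 0.106 to 0.394.

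*Slc22a7* encodes OAT2, an anion carrier with a strong sex difference in rodent kidney. Its levels were 3.00, 3.07 and 2.91 FPKM for *Ptpn6*+/mev and 5.20, 1.40 and 1.69 FPKM for wild-type. The *Ptpn6*+/mev values lay close together, and the wild-type values lay on both sides of them. Wild-type replicate 1 decided the log2 fold change of 0.06 (standard error 0.46), which was 0.86 without that mouse (adjusted p = 0.38, edgeR's quasi-likelihood test).

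For urate, *Slc22a12* was the most abundant of the 9 genes. Wild-type mice had 467, 475 and 387 FPKM of it, and *Ptpn6*+/mev mice 249.9, 313 and 273 FPKM. All 3 wild-type mice were above all 3 *Ptpn6*+/mev mice, the means being 443 ± 48.7 (SD, n = 3) and 278 ± 31.8 (SD, n = 3). A log2 fold change of -0.74 ± 0.13 (standard error) came with an adjusted p of 0.0873 in edgeR's quasi-likelihood test. The same edgeR test gave 0.0294 with wild-type replicate 2 left out, 0.0434 with wild-type replicate 3 left out and 0.143 to 0.419 with one of the other 4 left out. Its counts were fractional, as can arise where reads are shared between similar genes, while those of *Slc22a6* and *Slc22a8* were whole. How far shared reads affect its level was not tested.

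*Slc22a30*, a rodent gene of the same cluster and the next protein-coding gene on the other side of *Slc22a8*, showed no such separation. It measured 6.79, 8.24 and 8.16 FPKM in *Ptpn6*+/mev mice and 7.27, 8.12 and 5.01 FPKM in wild-type mice. The groups overlapped, wild-type replicate 3 being the lowest, and the log2 fold change was 0.02 with a standard error of 0.25. Its counts were fractional too.

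The cation carrier OCT2 is the product of *Slc22a2*. This gene was at 28.7, 40.6 and 30.5 FPKM in the *Ptpn6*+/mev group and at 40.07, 28.5 and 43.5 FPKM in the wild-type group. The lowest value of all was that of wild-type replicate 2, and the groups overlapped. Its log2 fold change of -0.23 (standard error 0.17) had an adjusted p of 0.662 in edgeR's quasi-likelihood test. Without that mouse the estimate was -0.37 (adjusted p = 0.212 in the same edgeR test). Leaving out *Ptpn6*+/mev replicate 1 or wild-type replicate 3 gave -0.13, and leaving out *Ptpn6*+/mev replicate 2 gave -0.4.

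The OATP carriers were near the lower end of the levels. *Slco1a1*, an androgen-dependent carrier of the urine side, was at 2.30, 3.90 and 3.75 FPKM in *Ptpn6*+/mev mice, and wild-type mice had 3.07, 4.98 and 1.30 FPKM. Wild-type replicate 2 had the highest value and wild-type replicate 3 the lowest, so the *Ptpn6*+/mev values lay between them. Its log2 fold change of 0.01 (standard error 0.46) became 0.58 without wild-type replicate 2 and -0.38 without wild-type replicate 3, and at neither setting did it pass the threshold (adjusted p = 0.432 and 0.652 in edgeR's quasi-likelihood test). *Slco4c1*, which encodes OATP4C1, a carrier of digoxin and thyroid hormone, had 4, 1 and 2 counts in the *Ptpn6*+/mev libraries and 0, 6 and 2 counts in the wild-type libraries. At this depth no difference could be detected for it, and no fold change is given.

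*Abcc4*, the gene of the export pump MRP4, was at 16.0, 15 and 15.8 FPKM in *Ptpn6*+/mev mice, while wild-type mice had 16.0, 17.4 and 22.9 FPKM. *Ptpn6*+/mev replicate 1 and wild-type replicate 1 had the same value, and wild-type replicate 3 was the one far above the rest. The estimate on the log2 scale was -0.33 ± 0.13 (standard error). In edgeR's quasi-likelihood test its unadjusted p was 0.0324 and its adjusted p 0.344. The estimate was -0.19 without wild-type replicate 3 and -0.45 without wild-type replicate 1.

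**Figure D2:**
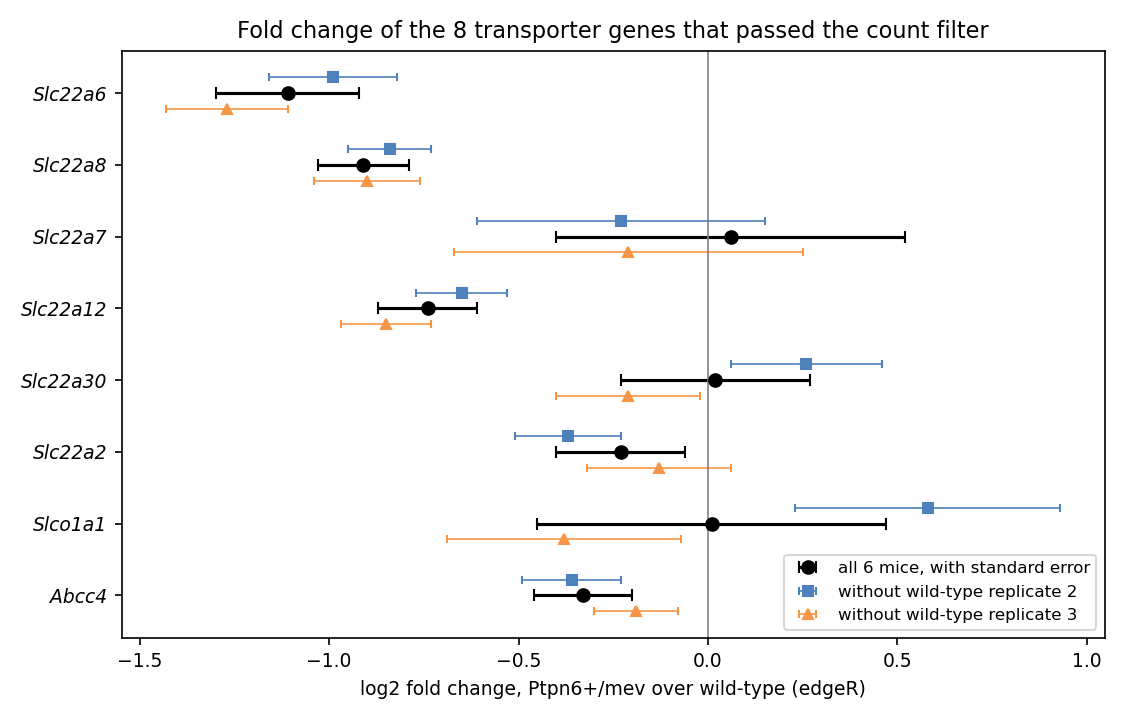
Log2 fold change of *Ptpn6*+/mev over wild-type mice with its standard error (horizontal axis) for the 8 tested transporters, with all 6 mice and without wild-type replicate 2 or 3. *Slc22a6*, *Slc22a8* and *Slc22a12* stay between -1.27 and -0.65 at these settings, while *Slco1a1* moves from -0.38 to 0.58.

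Ratios between genes within a library do not depend on how libraries are scaled. The FPKM of *Slc22a2* divided by that of *Slc22a6* was 0.402, 0.410 and 0.434 in *Ptpn6*+/mev mice and 0.223, 0.156 and 0.334 in wild-type mice, so the cation carrier was higher relative to the anion carrier in every *Ptpn6*+/mev mouse. Against *Slc22a12* the ratio of *Slc22a2* was 0.115, 0.130 and 0.112 in *Ptpn6*+/mev mice and 0.0858, 0.0601 and 0.1125 in wild-type mice, which overlapped through wild-type replicate 3, and against *Slc22a8* it was 1.98 to 3.41 and 1.145 to 1.885, without overlap. For *Slc22a12* against *Slc22a6* the ratio was 3.50, 3.16 and 3.88 in *Ptpn6*+/mev mice and 2.59, 2.60 and 2.96 in wild-type mice, again without overlap. The neighbours *Slc22a6* and *Slc22a8* had a ratio of 4.92, 8.30 and 5.32 in *Ptpn6*+/mev mice and 8.47, 7.34 and 5.28 in wild-type mice. Here the groups overlapped, and *Ptpn6*+/mev replicate 2 combined the highest *Slc22a6* with the lowest *Slc22a8* of its group. These ratios were chosen after the levels had been seen and were not tested.

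**Figure D3:**
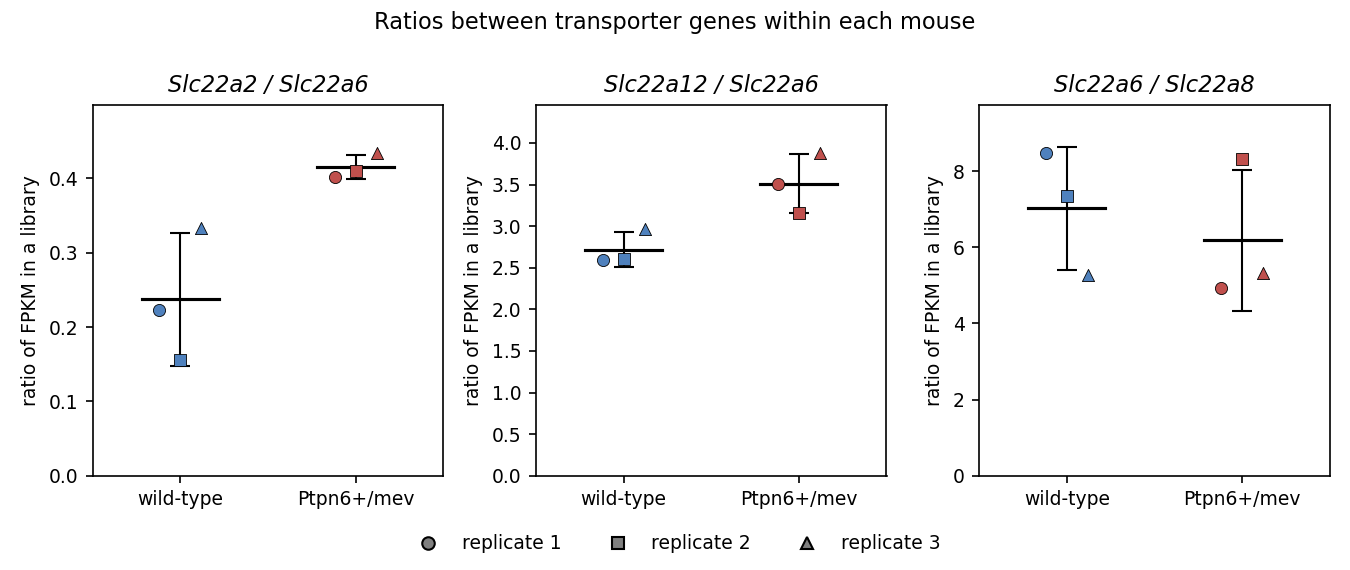
Ratio of the FPKM values of a pair of genes in the same library (vertical axes, from 0) by group; symbols are mice, bars are means and whiskers are 1 SD. The *Slc22a2* to *Slc22a6* ratio is 0.402 to 0.434 in *Ptpn6*+/mev mice and 0.156 to 0.334 in wild-type mice, and the *Slc22a6* to *Slc22a8* ratio overlaps.

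On chromosome 19 the annotation has 10 Slc22 genes, 4 of which are among the 9 transporters. The genes next to *Slc22a8* and *Slc22a6* were not lower in every *Ptpn6*+/mev mouse. On one side, *Slc22a28* had a log2 fold change of 0.25 (standard error 0.21), and *Slc22a29* was below the filter at 0.06 to 0.21 FPKM. On the other side, *Chrm1*, a muscarinic receptor gene, had 0.06 (standard error 0.32) and *Slc3a2*, the heavy chain of amino acid exchangers, -0.16 (standard error 0.12). *Wdr74*, the next gene on that side, was higher in each *Ptpn6*+/mev mouse, at 37.1 to 41.4 FPKM against 32.4 to 36.5 FPKM and a log2 fold change of 0.09 (standard error 0.09); 14.0% of all tested genes were apart in that direction. None of these neighbours had an adjusted p below 0.661 in edgeR's quasi-likelihood test.

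**Figure D4:**
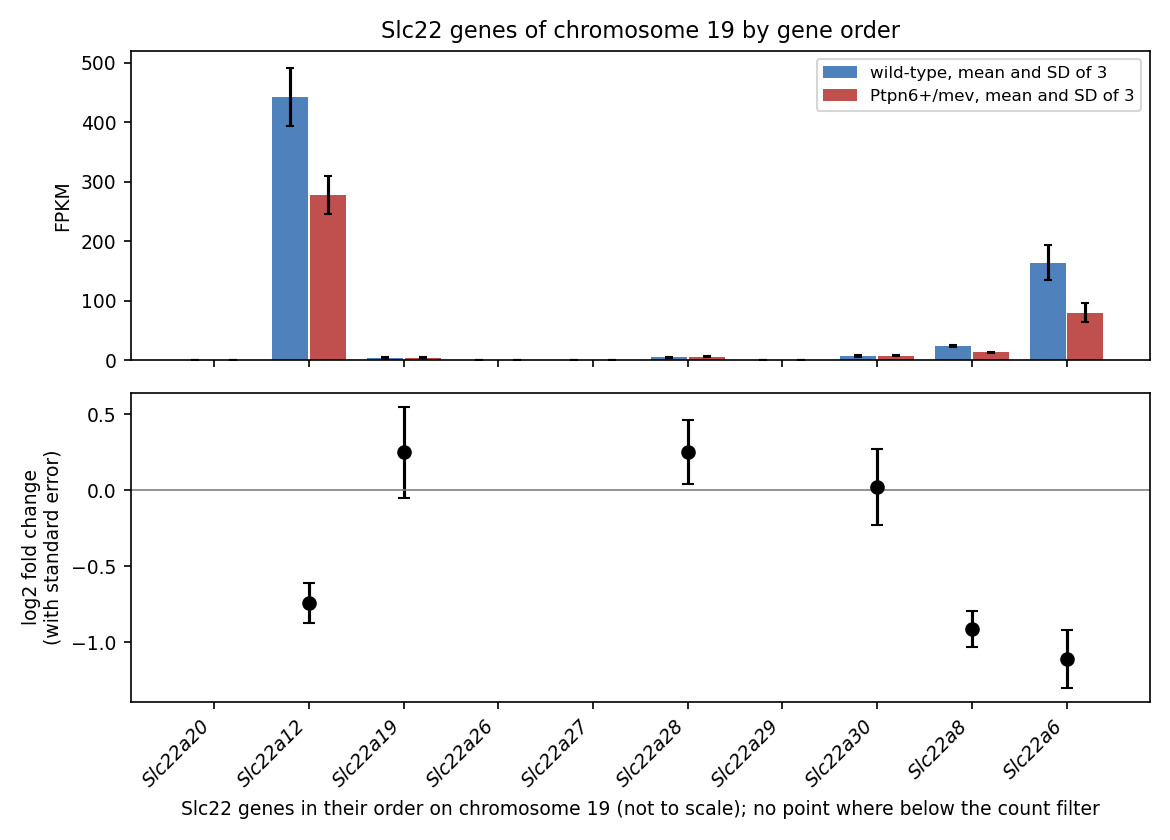
The Slc22 genes of chromosome 19 in their order along it, with the mean FPKM and SD of each group above (linear axis from 0) and the log2 fold change with its standard error below, for the genes that passed the count filter. *Slc22a12*, *Slc22a8* and *Slc22a6* lie at -0.74, -0.91 and -1.11, and the other 3 tested genes at 0.02 to 0.25.

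Other carriers of the same families were counted from lists that, like the 9 genes, were chosen with earlier results of these data known. Of the 21 genes of the Slc22 list outside the 9, 13 passed the filter, and 4 were lower and 0 higher in *Ptpn6*+/mev mice at an unadjusted p under 0.05, and edgeR's quasi-likelihood test called 0. *Slc22a13*, a urate and nicotinate carrier, overlapped between groups at -0.65 (standard error 0.29), and the abundant *Slc22a18* at -0.24 (standard error 0.13). With 1 library left out, *Slc22a13* ranged from -0.84 to -0.31 and *Slc22a18* from -0.35 to -0.15.

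In the Slco list 5 of the 12 genes in the table passed the filter, and 1 was lower at an unadjusted p under 0.05, with 0 at an FDR under 0.05 in the same edgeR test. This was *Slco1a6*, an organic anion transporting polypeptide and a paralog of *Slco1a1*, at 10.8, 13.3 and 12.4 FPKM in *Ptpn6*+/mev mice and 24.9, 32.0 and 18.5 FPKM in wild-type mice. The groups were apart, with a log2 fold change of -1.12 ± 0.24 (standard error) and an adjusted p of 0.115 in edgeR's quasi-likelihood test. Without wild-type replicate 2 its log2 fold change was -0.87 with an adjusted p of 0.0465 in the same edgeR test. Without wild-type replicate 3 these were -1.35 and 0.0319. Leaving out one of the other 4 gave an adjusted p of 0.244 to 0.464 in that test. *Slco3a1*, the most abundant of this list, had -0.12 (standard error 0.09), and *Slco2b1* -0.19 (standard error 0.41, and -0.57 without wild-type replicate 2). The prostaglandin carrier *Slco2a1* had 0.18 (standard error 0.10). With 1 library left out, *Slco2a1* ranged from 0.09 to 0.25 and *Slco3a1* from -0.18 to -0.06.

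Among the export carriers 17 of 20 passed the filter, and 5 were lower and 0 higher at an unadjusted p under 0.05, again with 0 at an FDR under 0.05 in the edgeR test. *Slc17a3*, an anion and urate exporter of the urine side, was at 96.4, 116 and 99.1 FPKM in *Ptpn6*+/mev mice and at 163, 143 and 154 FPKM in wild-type mice. All wild-type mice were above all *Ptpn6*+/mev mice, at a log2 fold change of -0.63 ± 0.10 (standard error; edgeR quasi-likelihood adjusted p = 0.0685). The urate pump *Abcg2* and the phosphate and anion carrier *Slc17a1* were highest in wild-type replicate 2, at 366 and 219 FPKM. Their log2 fold changes of -0.19 and -0.38 turned to 0.13 and 0.03 without that mouse. *Abcc6* was low, at 0.23 to 0.63 FPKM, with a log2 fold change of -0.99 (standard error 0.33).

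OAT1 and OAT3 run on a dicarboxylate gradient. In the list of exchange partners, ion gradients and scaffolds 14 of 14 genes passed the filter, and 8 were lower and 0 higher at an unadjusted p under 0.05, and edgeR's quasi-likelihood test called 0. *Slc13a3*, the sodium-dicarboxylate carrier of the blood side that refills this gradient, was at 37.1, 59.55 and 44.4 FPKM in *Ptpn6*+/mev mice and at 132, 110.4 and 74.6 FPKM in wild-type mice. The groups were apart, at a log2 fold change of -1.25 ± 0.24 (standard error; edgeR quasi-likelihood adjusted p = 0.102). *Slc25a10*, the mitochondrial dicarboxylate carrier, had -1.21 (standard error 0.30; -0.84 without wild-type replicate 2), again without overlap. *Fxyd2*, a regulatory subunit of the sodium pump, had 0.09 (standard error 0.12). It was at 0.22 without wild-type replicate 2 and at 0.01 without wild-type replicate 3.

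Of the 17 transcription factors and receptors reported to act on such genes, 16 passed the filter, and 6 were lower and 0 higher at an unadjusted p under 0.05, with 0 at an FDR under 0.05 in the edgeR test. *Nr1i2*, the gene of the xenobiotic receptor PXR, was at 3.61, 3.01 and 2.68 FPKM in *Ptpn6*+/mev mice and at 5.50, 5.90 and 5.81 FPKM in wild-type mice, without overlap. It had a log2 fold change of -0.96 ± 0.17 (standard error; edgeR quasi-likelihood adjusted p = 0.0852). *Prlr*, which encodes the prolactin receptor, was at 0.51 to 0.66 FPKM in *Ptpn6*+/mev mice and 1.59 to 3.55 FPKM in wild-type mice. Its counts were low, at 21 to 24 and 48 to 81 per library. From these counts the log2 fold change was -1.55 ± 0.32 (standard error, edgeR quasi-likelihood adjusted p = 0.104), a smaller difference than in FPKM. *Hnf4a*, a master factor of proximal tubule genes, had -0.36 (standard error 0.13), and the bile acid receptor *Nr1h4* -0.06 (standard error 0.22).

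**Figure D5:**
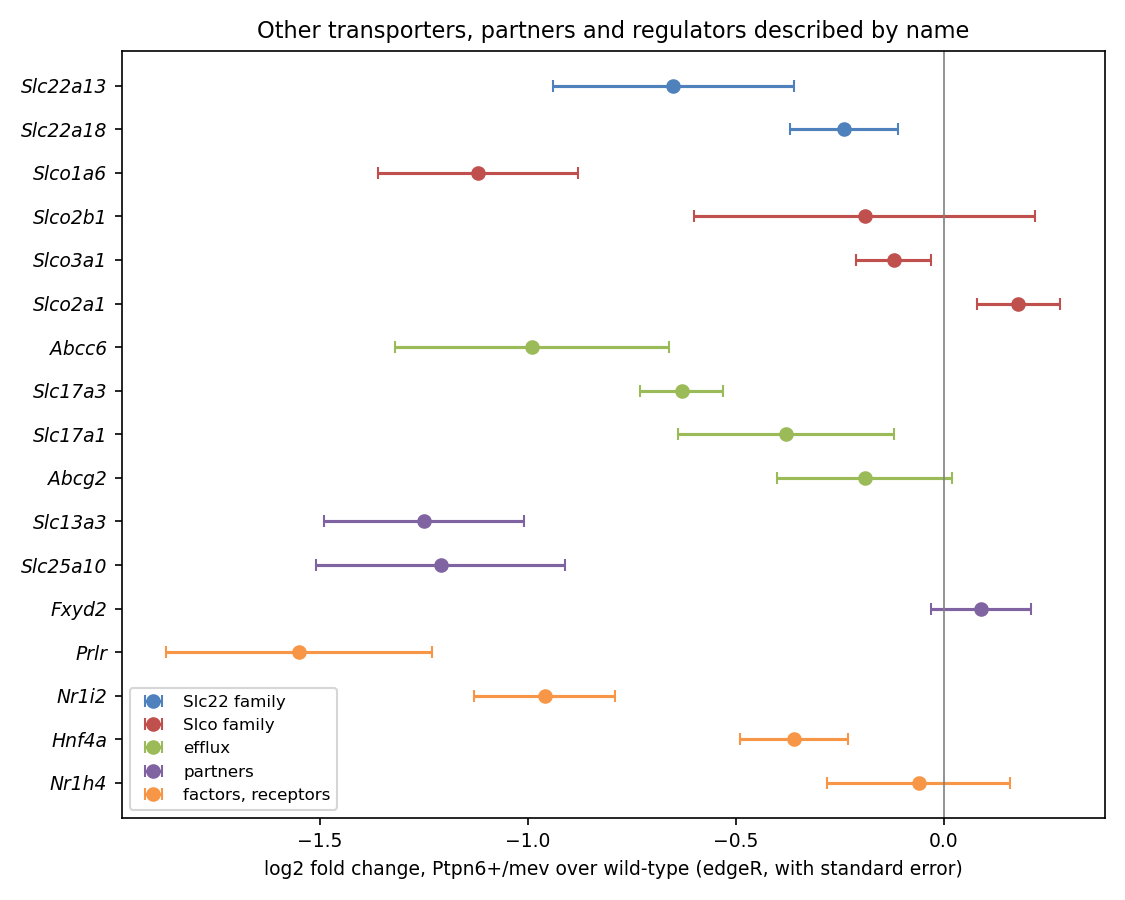
Log2 fold change of *Ptpn6*+/mev over wild-type mice with its standard error (horizontal axis) for the other carriers, partners, factors and receptors described in the text, coloured by list. *Slco1a6*, *Slc13a3*, *Slc25a10* and *Prlr* lie below -1, and *Slco2a1* and *Fxyd2* lie above 0.

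Over all 5 lists, 24 of the 65 tested genes were lower and 0 higher in *Ptpn6*+/mev mice at an unadjusted p under 0.05, where 6.71% of all tested genes were lower and 5.53% higher, while 0 were called by the quasi-likelihood test of edgeR. DESeq2's Wald test and edgeR's exact test each called 11 of them, all lower, where they called 2.97% and 2.99% of all tested genes, and limma-voom with quality weights called 13, all lower, against 3.77%. With no filter on low counts the quasi-likelihood test called 1, *Slc17a3*, against 0.315% of all genes with a count. Without wild-type replicate 2 it called 8, where it called 1.80% of all tested genes, and without wild-type replicate 3 it called 3, where it called 0.508%. As the lists were chosen with earlier results of these data known, nothing follows from these shares for the lists.

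Of the 15 proximal tubule markers, edgeR's quasi-likelihood test called 0, and 9 were lower at an unadjusted p under 0.05, where 6.71% of all tested genes were. The 6 markers of its last segment, S3, summed to 157 to 174 FPKM in *Ptpn6*+/mev mice and 244 to 408 FPKM in wild-type mice, and 5 of the 6 were lower at an unadjusted p under 0.05. In this list *Slc5a10*, a mannose and fructose carrier, had a log2 fold change of -1.46 (standard error 0.22) and *Acy3*, an aminoacylase, -0.87 (standard error 0.22). The 9 markers of segments S1 and S2 summed to 810 to 932 FPKM and 876 to 1155 FPKM, which overlapped. This overlap rested on wild-type replicate 2, at 876, as the other wild-type mice were at 1155 and 1053. At an unadjusted p under 0.05, 4 of the 9 were lower. The most abundant of this list were *Pdzk1*, a scaffold, at -0.36 (standard error 0.14) and the phosphate carrier *Slc34a1* at -0.34 (standard error 0.20), and the median of the 9 was -0.44. The marker lists too were chosen with earlier results of these data known, so their shares are a description. The part of these markers in the lower levels of *Slc22a6*, *Slc22a8* and *Slc22a12* was not tested.

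Sums over the markers of most other cells overlapped between the groups. Summed FPKM was 172 to 184 in *Ptpn6*+/mev mice and 84.5 to 193 in wild-type mice for endothelium, 148 to 233 and 52.6 to 254 for fibroblasts, 208 to 327 and 173 to 296 for macrophages, 25.0 to 58.5 and 26.7 to 45.5 for neutrophils, and 2102 to 3008 and 2543 to 2966 for the distal nephron. For fibroblasts the overlap rested on wild-type replicate 2, as the other wild-type mice were at 251 and 254. Podocyte markers summed to 119 to 152 and 84.9 to 130.2, and blood markers to 589 to 1633 and 502 to 1298. The 9 markers of tubular injury summed to 26310 to 32220 and 29720 to 38380, most of it *Spp1*, which had a log2 fold change of -0.38 (standard error 0.14). At an unadjusted p under 0.05, 1 of the 9 was lower and 2 were higher, where 5.53% of all tested genes were higher. The median log2 fold change of the 9 was 0.16. Of these markers 3 were apart and higher in *Ptpn6*+/mev mice, as were 14.0% of all tested genes, and 0 were apart and lower. Genes known to be higher in male mouse kidney summed to 2928 to 3573 and 2330 to 11030, most of the spread being that of *Kap*, and 2 of the 6 were lower at an unadjusted p under 0.05 (6.71% of all tested genes) and apart (6.38%). Those known to be higher in female kidney summed to 921 to 1035 and 877 to 1179, most of it *Acsm2*, and 2 of the 3 tested, *Prlr* and *Cyp4a14*, were likewise lower and apart, *Cyp4a14* with a log2 fold change of -2.57 (standard error 0.65). Liver transcripts were low and did not overlap, at 10.03 to 17.3 and 21.7 to 28.3 FPKM over 6 genes, of which 3 passed the filter.

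The gene closest to *Slc22a8* in its pattern over the 6 libraries was *Nr1i2*. Likeness was the root mean square difference between centred log2(FPKM + 1) profiles, which was 0.098 for *Nr1i2*, with a median of 0.469 over the other tested genes. Next came *BC035947* at 0.115, the glucuronosyltransferase *Ugt1a7c* at 0.121, the acetyl-CoA acetyltransferase *Acat3* at 0.127 and the homeobox gene *Lhx1* at 0.129. In counts *Lhx1* differed less between the groups, with a log2 fold change of -0.49 (standard error 0.18) against -0.91 for *Slc22a8*. For *Slco1a1* the closest were *Insl6* at 0.073 and *Hspb11* at 0.175, against a median of 0.497, followed by *Wfdc15b*, *Tmem29* and *Rasl2-9* at 0.197 to 0.204. With 6 libraries many genes can have a like pattern.

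The deposited table also names pathways. Among the 9 transporters, 4 had an entry there, *Slc22a7*, *Slc22a8*, *Slco1a1* and *Abcc4*, and all 4 were listed under bile secretion, as were 51 of the 4772 tested genes with any pathway. Of these 4, *Slc22a8* was called and the other 3 overlapped between groups.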

How the data were processed

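Kidney mRNA of 3 *Ptpn6*+/mev and 3 wild-type mice was measured, 1 library per mouse, grouped by the sample titles. Per the labels and the methods, the authors selected poly-A RNA, aligned reads to GRCm38.p5 with TopHat2 and evaluated expression with Cufflinks, and the submitters' processing notes also name Bowtie2 and RSEM. The authors deposited FPKM values, fragments scaled to transcript length and library size, and estimated counts. The tool behind the deposited counts is not given in the sources used here, 1744 of the 21367 genes had fractional counts, and the kit for RNA differs between the labels and the methods.

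Counts were rounded, and edgeR 4.0.16 (R 4.3.3) tested 13036 genes by its quasi-likelihood F-test after filterByExpr and TMM scaling, p-values being adjusted by Benjamini-Hochberg (FDR, threshold 0.05). Alternatives were DESeq2 size factors, upper quartile scaling, DESeq2 1.42.0, edgeR's exact test, and limma 3.58.1 (voom with quality weights, or log2 FPKM after adding 1 or 0.1). Others were no filter, a minimum of 10 counts per library, a block for the replicate number, and leaving out each library. The edgeR fit was tested on simulated data. Libraries of a group differed by more than sampling noise (chi-square per degree of freedom 6.27 to 43.3), and p-values measure the spread between these mice. Depth limits precision mainly for genes near 0.

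The 9 genes and all lists were chosen with earlier results of these data known. Named were the 9 genes and, from each carrier list, the 2 most abundant genes, the 2 with the largest change and any called. From marker lists the 2 most abundant were eligible. Also named were the 5 genes most like *Slc22a8* and *Slco1a1*, and neighbours of *Slc22a6* and *Slc22a8*. Positions are from GENCODE M21 and promoters from RefSeq, both on GRCm38. Protein sequences were not analysed here. *Slco6b1* of the Slco list was not in the table. Some items that the rule or the motif list would name are not reported here.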

Additional observations from a re-analysis of the deposited data

How the results depend on the processing

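Of the 8 tested transporters, the quasi-likelihood test called 1. DESeq2's Wald test, edgeR's exact test and limma-voom with quality weights each called 3 (*Slc22a6*, *Slc22a8* and *Slc22a12*), where they called 2.97%, 2.99% and 3.77% of all tested genes, no filter gave 2 (0.315%), limma on log2 FPKM gave 0 at either pseudocount (3 at an unadjusted p under 0.05), and leaving out 1 library gave 0 to 3: 3 without wild-type replicate 2 (1.80%), 2 without wild-type replicate 3 (0.508%) and 0 without any other. *Slc22a6*, *Slc22a8*, *Slc22a12*, *Slc22a2* and *Abcc4* had a negative log2 fold change at all 17 settings. Of the other carriers and regulators, 0 were called, against 11 by DESeq2, 11 by the exact test, 13 by limma-voom, 1 without a filter and 0 to 8 with 1 library left out. Of the marker genes, 0 were called, against 9, 8, 10 and 1 at the same settings and 0 to 10 with 1 library left out. The cause was not tested.

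Some log2 fold changes changed sign. *Slc22a7* was at -0.22 in limma-voom and ranged from -0.23 to 0.86 with 1 library left out. *Slc22a30* ranged from -0.21 to 0.26 and *Slco1a1* from -0.38 to 0.58 with 1 library left out. *Slco2b1* ranged from -0.57 to 0.05, *Abcg2* from -0.34 to 0.13 (0.06 in limma-voom), *Slc17a1* from -0.58 to 0.03, and *Nr1h4* from -0.28 to 0.08 (0.05 in limma on FPKM at either pseudocount).

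With the replicate number as a block, 0 transporters were called (4 at an unadjusted p under 0.05), *Slc22a8* having an adjusted p of 0.168 in edgeR's quasi-likelihood test. The numbers did not pair the mice: deviations of same-numbered mice correlated at -0.144, -0.184 and -0.13, and no mouse correlated best with its own number. With the block 0 other carriers and 0 markers were called, as without it, and 20 and 18 had an unadjusted p under 0.05, against 24 and 22. The median log2 fold change of all genes was -0.002, -0.004 with DESeq2 size factors and 0.006 with upper quartile scaling. Counts near 0 limit *Slco4c1*.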
